A study of Mus musculus with 16 samples.

Results

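Complement RNA in the kidney was followed through 8 genes, C3, C4b, Cfb, Cfi, C1s1, C1ra, Cd55 and Serping1, which were found by their symbols among the 57186 rows of the gene count table. All 8 passed the minimum of 100 counts over the libraries that 25408 genes passed. Total RNA was sequenced from the kidneys of 16 male mice on the C57BL/6J background, killed at 16 weeks of age. Every mouse carried Elmo1H/H, an allele that raises Elmo1, so no group had normal Elmo1. The non-diabetic mice were Elmo1H/H Ins2+/+ and the diabetic mice Elmo1H/H Ins2Akita/+, which make a misfolded insulin 2 and lose their beta cells. Each genotype was split into mice without a supplement (ND_C and D_C) and mice given vitamin B12 in the drinking water at 10 mg/kg per day from 8 weeks of age (ND_B12 and D_B12), with 4 libraries in each of the 4 groups. By the study's methods treatment lasted 8 weeks, whereas 16 weeks stands in the labels.

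Complement is a cascade of plasma and tissue proteins that marks surfaces for uptake and calls in inflammatory cells. C1s, paired with the protease C1r, cuts C4 and C2 in the classical pathway, and factor B forms the convertase of the alternative pathway. Every route converges on the cleavage of C3, while C1 inhibitor, factor I and decay-accelerating factor hold the cascade back. The liver makes most circulating complement, but tubular cells, fibroblasts and macrophages of the kidney also make several components, C3 and factor B among them.

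Library totals lay between 65271308 and 91771136 estimated counts, and the markers of kidney epithelium were abundant in every library, with at least 296866 normalized counts of Lrp2 and 107494 of Umod. The labels conflicted with another source. The mean counts per group that accompany the study matched other sets of 4 libraries than the labelled ones, and in that matching 11 of the 16 libraries fell in another group than their label. The diabetic groups exchanged places in it: the means given for untreated diabetic mice matched the 4 D_B12 libraries, and those for B12-treated diabetic mice matched D_C 2, D_C 3 and D_C 4 with ND_B12 4. For D_C 1 and ND_B12 4 (replicate 1 of D_C and replicate 4 of ND_B12) the diabetes state also differed, so the libraries labelled D_C 1 and ND_B12 4 were left out of a second set of fits, and every direction with B12 rests on the labels. The dates written in the library names, whose meaning is not given in the sources used here, ran with the groups, and only 2 of the 10 dates were shared by 2 groups.

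In diabetic kidneys, Cfb and C4b were lower than in non-diabetic kidneys, by 1.42-fold and 1.43-fold, and these were the 2 of 8 genes that passed the test, beside 3.02% of all genes tested (2.16% in the lower direction). An unadjusted p below 0.05 was found for 4 of the 8, C3, C4b, Cfb and Cd55, and for 19.4% of all genes. C3 had the largest difference, 2.33-fold higher on average, but it did not pass, and 2 of the 8 diabetic libraries stood far above the others. C1s1, C1ra, Serping1, Cfi and Cd55 did not pass either. No member passed in either comparison of B12-treated with untreated kidneys.

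Per kilobase of exon, the order of the genes was led by Cfb, with a median of 7151 normalized counts per kilobase and a range of 3751 to 8918 over the 16 libraries. This range did not overlap that of Serping1, which came next with a median of 977 (732 to 1289). C3 followed with a median of 595 normalized counts per kilobase and by far the widest range, 292 to 4418, which overlapped the ranges of Cfb and Serping1 above it and of C1s1, C1ra and others below it. In D_C 2, C3 (4418) stood above Cfb (3751) on this scale. C1s1 had a median of 368, C1ra of 255, Cd55 of 164 and C4b of 133 normalized counts per kilobase, and each of these overlapped its neighbour in the order. Cfi was the lowest, with a median of 52.0 and a range of 25.6 to 76.4, just under the lowest C4b value of 76.6. Counted per kilobase of the main transcript alone, Cd55 stood above C1ra, and the other ranks were the same. Normalized counts here are estimated counts divided by a size factor per library.

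Several members share sequence with other genes, and the counts of those members depend on how shared reads were divided. Cfb (chr17:35074852-35081559, GRCm39, minus strand) had the same 50-base stretches as other annotated genes over 77.3% of its main transcript, mostly Gm20547, a locus that covers it on the same strand. C1ra (chr6:124489364-124500402, plus strand) shared 50.8% of its stretches, mostly with its copy C1rb, C1s1 (chr6:124507297-124559389, minus strand) 39.4%, mostly with C1s2, and C4b (chr17:34947354-34962912, minus strand) 37.4%, mostly with C4a. Cd55 (chr1:130366469-130390926, minus strand) shared 28.5%, mostly with Gm16083, and C3 (chr17:57510964-57535155, minus strand) 3.78%. Cfi (chr3:129629533-129668981, plus strand) and Serping1 (chr2:84595705-84620873, minus strand) shared none. The C1rb gene (chr6:124547253-124558130) lies inside the annotated span of C1s1 on the opposite strand. The transcripts that took nearly all C1s1 counts, C1s1-204 and C1s1-203, begin at chr6:124519318 and chr6:124519292 and do not reach it. Strand was assigned from intron motifs, so reads that cross no intron cannot be told apart by strand where the annotated genes overlap.

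The RefSeq promoter table (GRCm38.p6, 250 bases before to 50 after the start) held 4 of the 8 genes, and their promoters are shown because C3 and Cd55 varied in opposite directions between libraries while C1s1 and C1ra varied together. They are C3 (chr17:57228087-57228386, minus strand), Cd55 (chr1:130462695-130462994, minus strand), C1s1 (chr6:124542272-124542571, minus strand, the first of its 2 entries) and C1ra (chr6:124512371-124512670, plus strand). Capitals mark matches on either strand to a kappaB-like motif (GGGA, any 4 bases, CC), a pair of C/EBP half-sites (TTGCNNAA), a gamma-activated site (TTCNNNGAA) or the core of an interferon-stimulated response element (GAAA, any 2 bases, GAAA).
C3: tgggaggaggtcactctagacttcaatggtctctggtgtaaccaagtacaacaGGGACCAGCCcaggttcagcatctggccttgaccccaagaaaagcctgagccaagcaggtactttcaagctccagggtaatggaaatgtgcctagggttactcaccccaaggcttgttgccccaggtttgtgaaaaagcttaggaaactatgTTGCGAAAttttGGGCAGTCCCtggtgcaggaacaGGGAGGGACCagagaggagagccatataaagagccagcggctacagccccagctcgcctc
Cd55: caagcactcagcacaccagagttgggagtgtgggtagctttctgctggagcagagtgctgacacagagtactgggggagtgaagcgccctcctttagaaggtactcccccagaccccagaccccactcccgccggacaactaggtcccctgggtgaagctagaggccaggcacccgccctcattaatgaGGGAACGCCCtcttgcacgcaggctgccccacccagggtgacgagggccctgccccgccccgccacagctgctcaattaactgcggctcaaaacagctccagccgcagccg
C1s1: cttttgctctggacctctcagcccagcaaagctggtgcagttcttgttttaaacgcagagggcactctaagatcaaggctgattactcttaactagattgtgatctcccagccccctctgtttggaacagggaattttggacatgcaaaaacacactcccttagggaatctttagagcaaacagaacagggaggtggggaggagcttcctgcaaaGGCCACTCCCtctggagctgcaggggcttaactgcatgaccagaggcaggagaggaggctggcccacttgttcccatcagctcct
C1ra: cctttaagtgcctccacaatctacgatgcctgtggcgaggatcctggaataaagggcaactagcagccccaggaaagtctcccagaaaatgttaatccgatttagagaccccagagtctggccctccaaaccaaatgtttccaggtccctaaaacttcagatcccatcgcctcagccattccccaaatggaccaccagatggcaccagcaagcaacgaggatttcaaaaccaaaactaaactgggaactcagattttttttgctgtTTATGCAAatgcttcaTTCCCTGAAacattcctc
The C3 promoter held 3 kappaB-like matches and 1 pair of C/EBP half-sites, none of them overlapping. Cd55 held 1 kappaB-like match and the printed C1s1 entry 1. C1ra held 1 pair of C/EBP half-sites and 1 match to the gamma-activated site, a motif that is the same on both strands. The other C1s1 entry, not shown, held a kappaB-like match and also a pair of C/EBP half-sites. The kappaB-like motif was found in 20.7% of all 32851 promoters of this length, the C/EBP pair in 10.8%, the gamma-activated site in 8.3% and the interferon core in 3.44%. These matches describe letters in a window and no binding was measured.

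**Figure D1:**
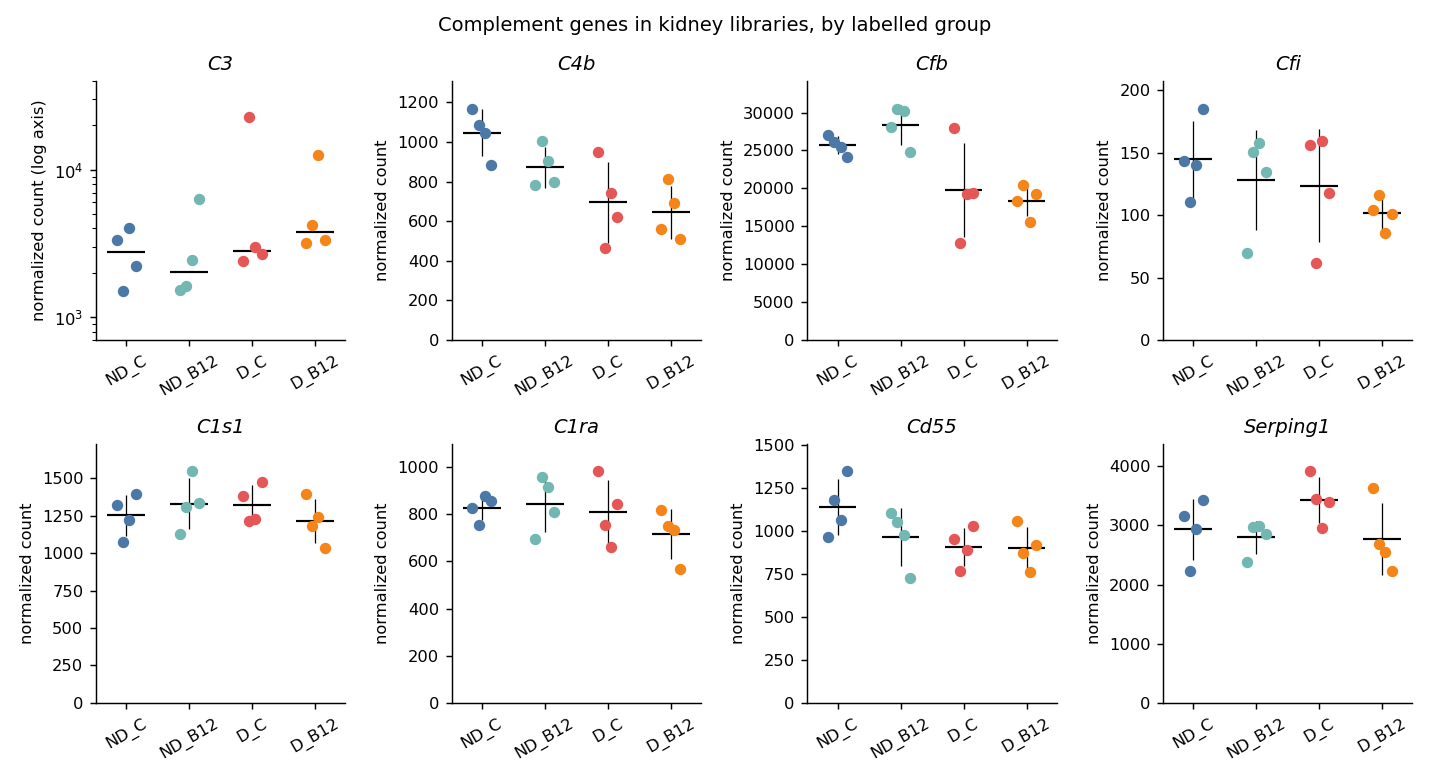
Normalized counts of the 8 complement genes in every library, by labelled group (x axis), with C3 on a log axis and the others from 0. Lines are group means with bars of ± SD (n = 4), except for C3, where lines are medians. The D_C point of C3 at 22896 and the D_B12 point at 12531 stand above the rest, and Cfb of D_C 1 (27916) lies among the non-diabetic libraries.

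C3 is the central component, cut by the C3 convertases of every pathway. C3 normalized counts, in the order of the replicate numbers, were 3335, 1511, 4045 and 2211 in the ND_C libraries and 1520, 1629, 2426 and 6333 in ND_B12, against 2409, 22896, 2986 and 2673 in D_C and 3184, 4228, 12531 and 3343 in D_B12. D_C 2 and D_B12 3 stood far above the other libraries of their groups, and ND_B12 4 came next. Among the remaining 13 libraries, those of D_B12 (3184 to 4228) lay above those of ND_B12 (1520 to 2426) and of D_C (2409 to 2986). ND_C overlapped all 3 of these groups. The libraries set aside here were picked by their C3 values, and the share of all genes that part in this way was not counted. The separation therefore carries no test. The C3 mean was 7741 ± 10106 in D_C and 5821 ± 4497 in D_B12 against 2776 ± 1132 in ND_C and 2977 ± 2273 in ND_B12 (SD, n = 4). The log2 fold change of diabetic over non-diabetic kidneys was 1.22 ± 0.51 (SE), with an edgeR adjusted p of 0.197. Without D_C 1 and ND_B12 4 it was 1.71 ± 0.49, with an edgeR adjusted p of 0.042, and without D_C 2 and D_B12 3 it was 0.11 ± 0.30, with an edgeR adjusted p of 0.902. In untreated kidneys the log2 fold change of 1.48 became -0.05 without D_C 2, and in B12-treated kidneys 0.96 became 0.26 without D_B12 3. In B12-treated kidneys without D_C 1 and ND_B12 4 it was 1.65 ± 0.71, with an edgeR adjusted p of 0.240, and all 4 D_B12 libraries then lay above the remaining ND_B12 libraries, a lack of overlap that held for 18.5% of all genes.

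The libraries with most C3 also stood apart in other genes. Of the 17 tested genes in a list of acute phase and NF-kB targets, 9 had their highest normalized count in D_C 2. Among them were Icam1, an adhesion molecule, Lcn2, a marker of tubular injury, and Tnfaip3 and Nfkbia, inhibitors of NF-kB. D_C 2 was also highest for 2 of 10 injured tubule markers and 1 of 32 interferon-stimulated genes. The share of all genes with their highest count in D_C 2 was not counted, so 9 of 17 cannot be set against it. Icam1 read 3018 in D_C 2 and 1959 in D_B12 3 against a median of 1273 over the 16 libraries, and Relb 595 and 505 against 310. D_C 2 and D_B12 3 ranked highest and next highest for Icam1, Relb, Nfkb2 and Tnf. ND_B12 4, which came next in C3, ranked 10, 11, 10 and 15 of the 16 libraries for these genes, but 2 for Nfkbia and Tnfaip3. D_B12 3 ranked 9 for Nfkbia and 14 for Hp, of the same list. Lcn2 was 579 in D_C 2 but 101 in D_B12 3, where the median was 126, and Cxcl1 was 81.8 in D_C 2 and at its lowest, 13.8, in D_B12 3. The acute phase genes Saa1, Saa2 and Saa3 had too few counts to be tested. Kap, an androgen-regulated gene of the proximal tubule, was lowest in D_C 2 (625013), D_B12 3 (714911) and ND_B12 4 (744275), the 3 libraries with most C3, against a median of 1032320. D_C 2 also had the lowest Lrp2 and Slc5a2, both proximal tubular, and the highest Aqp2, of the collecting duct (27158 against a median of 9131). ND_B12 4 went the other way, with the highest Slc34a1 and Slc5a2 of the 16 libraries and more Lrp2 (399229) than the median (354171), and D_B12 3 lay near the median for Lrp2 (353773). The part of these differences in the C3 values was not tested.

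Factor B, from Cfb, carries the protease of the alternative pathway convertase. Cfb normalized counts were 27065, 26131, 25519 and 24129 in the ND_C libraries and 28139, 30501, 30256 and 24783 in ND_B12, against 27916, 12830, 19205 and 19405 in D_C and 18376, 20429, 15546 and 19269 in D_B12. All diabetic libraries other than D_C 1 lay below all non-diabetic libraries. The Cfb mean was 19839 ± 6190 in D_C and 18405 ± 2083 in D_B12 against 25711 ± 1231 in ND_C and 28420 ± 2646 in ND_B12 (SD, n = 4). Cfb was lower in diabetic kidneys by the edgeR test, with a log2 fold change of -0.50 ± 0.11 (SE) and an adjusted p of 0.0297. Without D_C 1 and ND_B12 4 the log2 fold change was -0.64 ± 0.09, with an edgeR adjusted p of 0.000619, and the groups did not overlap, which held for 2.72% of all genes in these libraries. The call was lost without D_C 2 and D_B12 3, at a log2 fold change of -0.38 and an edgeR adjusted p of 0.0659. Cfb in the B12-treated kidneys gave -0.63 ± 0.16 (edgeR adjusted p = 0.0711) and in the untreated kidneys -0.37 ± 0.16 (edgeR adjusted p = 0.221).

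C4 is the classical and lectin pathway substrate that becomes part of their C3 convertase. C4b normalized counts were 1168, 1084, 1048 and 886 in the ND_C libraries and 785, 1007, 904 and 797 in ND_B12, against 952, 464, 744 and 624 in D_C and 562, 812, 692 and 511 in D_B12. ND_C had the highest values, and D_C 1 and D_B12 2 were the diabetic libraries that reached into the non-diabetic range. The C4b mean was 696 ± 206 in D_C and 644 ± 135 in D_B12 against 1046 ± 118 in ND_C and 873 ± 104 in ND_B12 (SD, n = 4). C4b was lower in diabetic kidneys by the edgeR test, with a log2 fold change of -0.51 ± 0.13 (SE) and an adjusted p of 0.0447. Without D_C 1 and ND_B12 4 it was -0.63 ± 0.12, with an edgeR adjusted p of 0.00631, in a fit that called 3 of the 8 members and 9.82% of all genes. Without D_C 2 and D_B12 3 it was -0.45 ± 0.12 and no longer passed (edgeR adjusted p = 0.101). In untreated kidneys the log2 fold change was -0.59 ± 0.18 (edgeR adjusted p = 0.102) and in B12-treated kidneys -0.44 ± 0.18 (edgeR adjusted p = 0.238). C4a, the near copy of C4b, had a log2 fold change of -0.68 ± 0.22 and an edgeR adjusted p of 0.0927. In bulk kidney RNA, fewer cells of a type and less RNA per cell cannot be told apart for any of these genes.

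The calls of Cfb and C4b did not hold in every fit. They lay close to the threshold, and leaving out 1 library at a time gave edgeR adjusted p-values of 0.00223 to 0.0712 for Cfb and 0.00852 to 0.102 for C4b, with log2 fold changes of -0.61 to -0.42 and -0.61 to -0.43. Both genes passed without ND_C 4, ND_B12 4, D_C 1 or D_B12 2, Cfb alone without D_C 2 or D_B12 4, and neither without any of the other 10 libraries. With the date as a covariate, neither passed for diabetes over both treatments (edgeR adjusted p = 0.682 and 0.761), and no gene of the table did in that comparison.

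**Figure D2:**
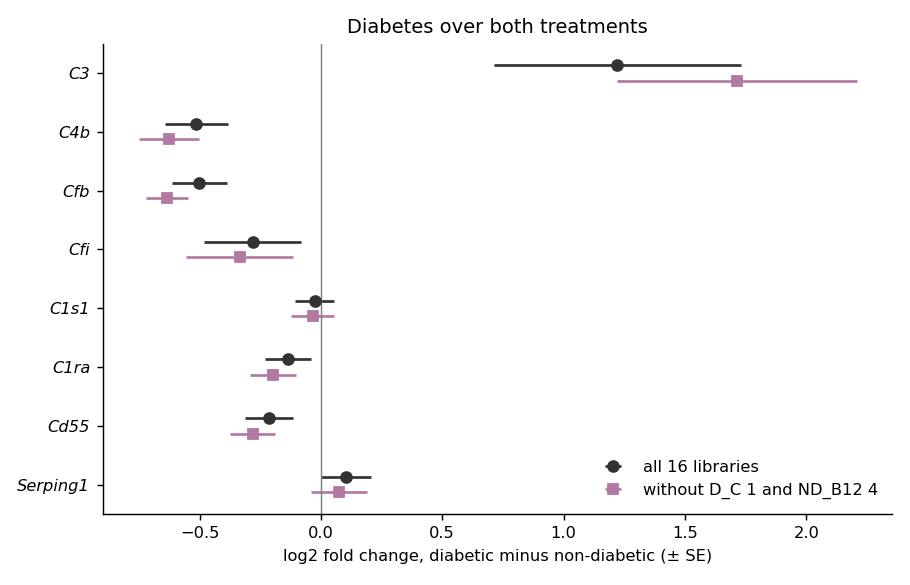
Log2 fold changes of the 8 genes in diabetic against non-diabetic kidneys over both treatments (x axis), with bars of ± SE, from all 16 libraries (circles) and without D_C 1 and ND_B12 4 (squares). Cfb (-0.50) and C4b (-0.51) lie below 0 by several SE, and C3 lies above 0 with the widest bars.

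C1s and C1r are the proteases of the first classical component. C1s1 normalized counts were 1322, 1077, 1220 and 1394 in the ND_C libraries and 1129, 1309, 1546 and 1337 in ND_B12, against 1381, 1212, 1227 and 1479 in D_C and 1396, 1184, 1242 and 1036 in D_B12. C1s1 had the narrowest range of the 8 genes, with the highest library 1.49 times the lowest, and the 4 groups overlapped. The log2 fold change with diabetes was -0.03 ± 0.08 (SE), with an edgeR adjusted p of 0.898. C1ra normalized counts were 825, 754, 878 and 856 in the ND_C libraries and 694, 958, 918 and 808 in ND_B12, against 982, 755, 659 and 844 in D_C and 817, 752, 733 and 566 in D_B12. D_C 1 had the most C1ra and D_B12 4 the least, and the groups overlapped. The log2 fold change of C1ra with diabetes was -0.14 ± 0.09, with an edgeR adjusted p of 0.468.

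The estimated counts per transcript divided C1s1 in unlike ways between the groups. Nearly all C1s1 counts went to 2 transcripts, C1s1-204 and C1s1-203, which share 11 of their 12 exons and differ in the first (chr6:124519227-124519318, 92 bases, in C1s1-204 and chr6:124519152-124519292, 141 bases, in C1s1-203, GRCm39). The share of C1s1-204 was 99.6%, 98.4%, 96.7% and 98.4% in D_C and 20.4%, 48.4%, 32.1% and 23.8% in D_B12. It was 60.3%, 98.7%, 77.5% and 17.4% in ND_C and 28.9%, 33.5%, 41.6% and 80.7% in ND_B12. D_C and D_B12 did not overlap, whereas the non-diabetic groups overlapped with each other and with D_B12, and ND_C 2 reached the range of D_C. Of 18841 transcripts that took 10% to 90% of their gene, 3.55% did not overlap between D_C and D_B12, so that a lack of overlap by itself was no rare result. The transcripts were looked at after the values were seen, their shares rest on short overlapping first exons, and no test was made. The main transcript Serping1-201 (92.6% to 95.9% of Serping1 in D_C and 90.3% to 92.4% in D_B12) and the minor Serping1-203 (3.63% to 5.43% and 6.34% to 7.70%) did not overlap either, which held for 3.72% of the 45026 transcripts that took 1% to 99% of their gene. The main transcripts of C3, C4b, C1ra and Cfi took at least 89.2% of their gene in every library, and those of Cfb, Cfb-201 and Cfb-207, overlapped between all groups.

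**Figure D3:**
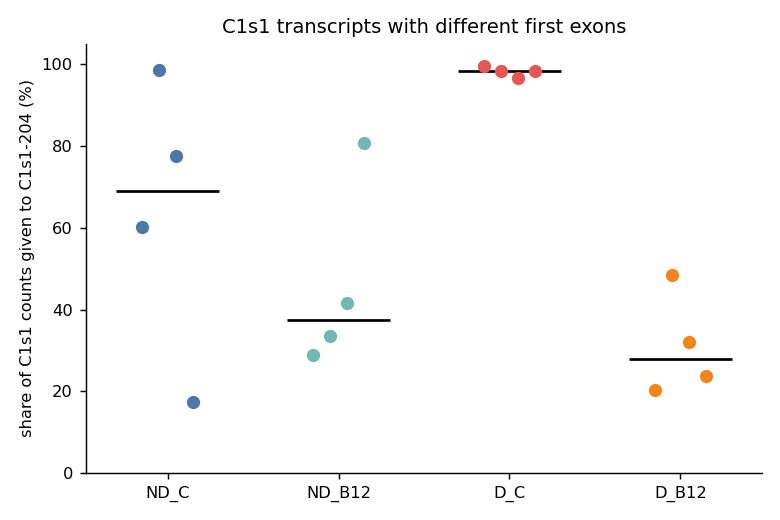
Share of C1s1 estimated counts given to transcript C1s1-204, in percent (y axis from 0), for every library by labelled group, with lines at the group medians. The D_C libraries lie between 96.7% and 99.6% and the D_B12 libraries between 20.4% and 48.4%, and ND_C, from 17.4% to 98.7%, reaches below the one and into the other.

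Serping1 encodes C1 inhibitor, which blocks C1r and C1s. Serping1 normalized counts were 3169, 2224, 2938 and 3425 in the ND_C libraries and 2386, 2969, 2997 and 2848 in ND_B12, against 3914, 3443, 2964 and 3404 in D_C and 3633, 2682, 2553 and 2225 in D_B12. D_C had the highest mean, 3431 ± 388 against 2939 ± 517 in ND_C (SD, n = 4), and the groups overlapped. The log2 fold change with diabetes was 0.10 ± 0.10 (SE), with an edgeR adjusted p of 0.637. Factor I, from Cfi, cuts C3b and C4b into inactive forms with the help of cofactors. Cfi normalized counts were 143, 110, 140 and 185 in the ND_C libraries and 69.9, 151, 158 and 134 in ND_B12, against 156, 62.0, 159 and 118 in D_C and 104, 116, 85.5 and 101 in D_B12. D_C 2 and ND_B12 1 were the lowest libraries, and the groups overlapped, with a log2 fold change with diabetes of -0.28 ± 0.20 (edgeR adjusted p = 0.471).

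Cd55 is decay-accelerating factor, a membrane protein that takes the C3 convertases apart. Cd55 normalized counts were 967, 1182, 1064 and 1346 in the ND_C libraries and 1106, 1050, 977 and 723 in ND_B12, against 950, 766, 890 and 1027 in D_C and 1056, 872, 761 and 918 in D_B12. The 3 lowest libraries were ND_B12 4, D_B12 3 and D_C 2, the same 3 that had the most C3. The log2 fold change with diabetes was -0.21 ± 0.10 (SE), with an edgeR adjusted p of 0.246, and -0.28 ± 0.09 without D_C 1 and ND_B12 4 (edgeR adjusted p = 0.0726). The near copy Cd55b, with far fewer counts, had a log2 fold change of -0.43 ± 0.14 (edgeR adjusted p = 0.109).

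Across the 16 libraries the members fell into sets that varied together. The Pearson r of log2 CPM was 0.82 between C4b and Cfb, and among C1s1, C1ra and Serping1 it was 0.75 (C1s1 and C1ra), 0.77 (C1s1 and Serping1) and 0.66 (C1ra and Serping1). C1ra and C1s1 share reads with copies in the same cluster, but Serping1 shares none. C3 ran against Cd55 (r = -0.78, Spearman rho = -0.77) and Cfb (r = -0.78, rho = -0.67). Without D_B12 3 and D_C 2, the libraries farthest from the C3 median, r was -0.72 for Cd55 and -0.42 for Cfb, so the relation with Cfb leaned more on those libraries. With the group means removed, r was -0.81 for Cd55 and -0.78 for Cfb. These values describe 28 pairs over the same 16 libraries, which share their depth and composition, and carry no test.

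**Figure D4:**
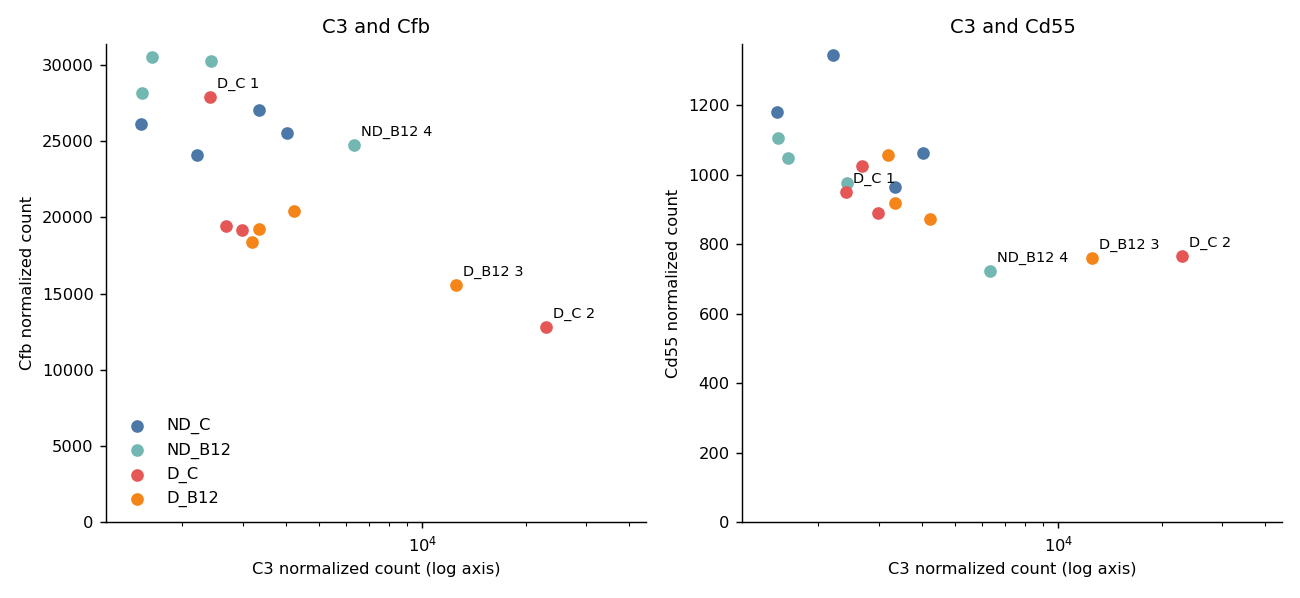
C3 normalized counts (x axis, log scale) against those of Cfb and of Cd55 (y axes from 0) in the 16 libraries, coloured by labelled group. D_C 2 and D_B12 3 have the most C3 and the least Cfb, and D_C 2, D_B12 3 and ND_B12 4 have the least Cd55.

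**Figure D5:**
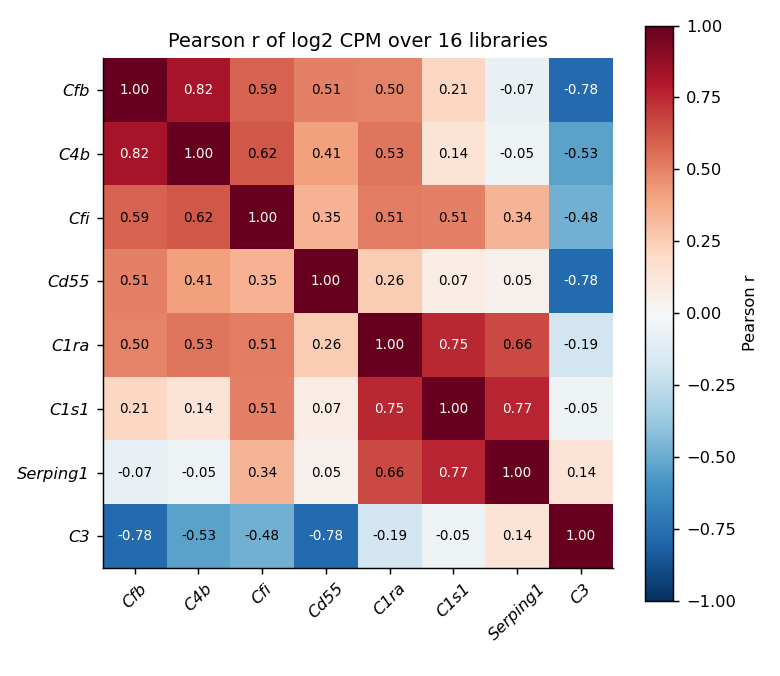
Pearson r of log2 CPM over the 16 libraries for each pair of the 8 genes, from blue (-1) to red (1). Cfb with C4b (0.82) and C1ra, C1s1 and Serping1 with each other (0.66 to 0.77) form red blocks, and C3 is blue against Cfb and Cd55 (-0.78 each).

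Among all genes with a mean log2 CPM of at least 1, those most like Cfb over the 16 libraries were Azgp1 (r = 0.97), Cyp4b1 (0.96) and Pde6a (0.96). C4b was closest to H2-DMb2 (r = 0.91) and Cd74 (0.90), which belong to the MHC class II pathway, and to Akr1b10 (0.88). C3 was closest to Hmga1b (r = 0.94), Hyal1 (0.94) and Tkt (0.93), and Cd55 to Utp14b (0.94), Cyp51 (0.90) and Ldc1 (0.88). Cfi was closest to Olfml1 (r = 0.94), Toe1 (0.88) and Cacna2d1 (0.85). C1ra was closest to its copy C1rb (r = 0.90), and Serping1 to Upk3b (0.89), Psca (0.89) and Krt18 (0.88), epithelial genes of which Upk3b and Psca are known from urothelium. The pattern averaged over the 8 members was most like those of Gm16332 (r = 0.88), Prelp (0.88) and Armcx3 (0.87).

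B12 was compared within each genotype, which asks whether the supplement changed complement RNA in diabetic or in non-diabetic kidneys. In diabetic kidneys, 0 of the 8 genes passed the edgeR test, 0 had an unadjusted p below 0.05 and 0 passed in DESeq2, beside 0% of all genes called by edgeR and 13.6% at an unadjusted p below 0.05. Over all genes DESeq2 called 670 in this comparison, and it gave no p-value for C3. With edgeR, 214 genes were called without D_C 1 and ND_B12 4, and 204 with the date as a covariate. All 8 estimates were below 0, from -0.41 ± 0.71 for C3 to -0.01 ± 0.14 for Cd55 (log2 fold change ± SE), with -0.30 ± 0.15 for Serping1 (edgeR adjusted p = 0.377), and 3 of them turned above 0 without D_C 1 and ND_B12 4. These signs follow the labels. In the matching of the group means the diabetic groups exchange, but D_C 1 leaves them and ND_B12 4 joins them. Differences between those matched sets were not fitted, and their signs need not be the reverse of the labelled ones. In non-diabetic kidneys, 0 of the 8 passed with edgeR (0% of all genes), 0 had an unadjusted p below 0.05 (7.62% of all genes) and 0 passed in DESeq2, which called 6 genes in all, and 4 estimates lay above and 4 below 0. They ran from -0.26 ± 0.18 for C4b to 0.15 ± 0.16 for Cfb. The interaction of diabetes and B12 gave 0 of 8 genes by edgeR (0% of all genes), 0 at an unadjusted p below 0.05 (16.1% of all genes) and 0 in DESeq2. Its standard errors ran from 0.16 for C1s1 to 1.00 for C3 on the log2 scale.

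Diabetes was also compared within each treatment. In untreated kidneys 0 of the 8 genes passed with edgeR (1.66% of all genes did), 3 had an unadjusted p below 0.05, namely C4b, Cfb and Cd55 (18.6% of all genes), and 1 passed in DESeq2. In B12-treated kidneys 0 passed with edgeR (0.823% of all genes did), 2 had an unadjusted p below 0.05, namely Cfb and C4b (17% of all genes), and 1 passed in DESeq2. Without D_C 1 and ND_B12 4, Cfb passed in untreated (edgeR adjusted p = 0.0136) and in B12-treated kidneys (0.010), and C4b in untreated kidneys (0.0183). The share of all genes called was then 8.21% in untreated and 2.69% in B12-treated kidneys. These comparisons use parts of the libraries of the comparison over both treatments and are no independent evidence.

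Of 50 other complement genes in a fixed list, 44 could be tested, and diabetes changed 6 of them by edgeR, 1 higher and 5 lower, which is beside 3.02% of all genes. Their median log2 fold change was -0.04, that of the 8 members -0.17, and that of all genes 0.01. Masp1, a protease of the lectin pathway, rose from 119 ± 22.2 to 226 ± 59.5 normalized counts (SD, n = 8), with a log2 fold change of 0.92 ± 0.16 (SE) and an edgeR adjusted p of 0.0121. C1rl, a protease gene next to C1ra, was 1742 to 2034 in the non-diabetic and 1369 to 1557 in the diabetic libraries, without overlap, which held for 0.386% of all genes. Its log2 fold change was -0.35 ± 0.04, with an edgeR adjusted p of 0.00408. Unlike Cfb and C4b, C1rl passed in all but 1 of its 24 other fits, the exception being the one with the date.

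The other lower genes belong to the recognition and receptor ends of the system. C1qa and C1qc, chains of the C1q molecule that macrophages make, had log2 fold changes of -0.47 ± 0.12 and -0.41 ± 0.10 (SE) and edgeR adjusted p-values of 0.0382 and 0.0337. C1qb was close to them, at -0.30 ± 0.08, without passing (edgeR adjusted p = 0.0627). Itgb2 and Itgax, the chains of complement receptor 4, were lower by edgeR, at -0.56 ± 0.13 (adjusted p = 0.0346) and -0.53 ± 0.14 (adjusted p = 0.0463). Of 14 tested genes for classical and lectin recognition and proteases, 1 was higher and 3 were lower, and of 14 membrane regulators and receptors 2 were lower. None of 9 alternative and terminal pathway genes and none of 7 soluble regulators passed by edgeR, none of either list had an unadjusted p below 0.05, and DESeq2 called 0 in each. The soluble regulator Clu, clusterin, averaged 13110 normalized counts in non-diabetic and 13450 in diabetic kidneys. Leaving out D_C 2 and D_B12 3 left 1 of the 44 genes called, and of the 24 other fits, 22 called Masp1, 10 each C1qc and Itgb2, and 6 each C1qa and Itgax. For B12, edgeR called 0 of the 44 in either genotype. An unadjusted p below 0.05 was found for 6 in diabetic and 4 in non-diabetic kidneys (beside 13.6% and 7.62% of all genes). DESeq2 called 2 (C1qc and Cd59a) in diabetic and 0 in non-diabetic kidneys, beside 670 and 6 of all genes.

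Markers of other cell types were read beside these genes. For diabetes over both treatments, 3.02% of all genes passed with edgeR, 2.16% in the lower direction, and 19.4% had an unadjusted p below 0.05. Of 12 macrophage markers 0 passed with edgeR for diabetes, 5 had an unadjusted p below 0.05 and 1 (Csf1r) passed in DESeq2, and their summed normalized counts were 9984 to 13154 in non-diabetic and 9042 to 12146 in diabetic libraries. Of 11 B and T cell markers 2 were lower, all 11 estimates were below 0, with a median log2 fold change of -0.57, and their sums were 1023 to 4077 in non-diabetic and 544 to 1258 in diabetic libraries. Of 32 tested interferon-stimulated genes 8 were lower, with a median of -0.19 and sums of 24255 to 31858 against 21228 to 29955. Of 12 fibroblast markers 0 passed by edgeR, 2 had an unadjusted p below 0.05 and 1 (Pdgfra) passed in DESeq2, and the sums were 18215 to 30264 against 21656 to 38585. Of 12 hepatocyte markers, which stand for the main source of plasma complement, 1 was lower, and the sums were 12033 to 15741 against 9336 to 15412. Of 10 markers of injured tubules 1 was lower by edgeR and 3 (Cdkn1a, Lcn2 and Vcam1) passed in DESeq2, and the sums were 25268 to 42224 against 31600 to 50623. Of 17 tested acute phase and NF-kB targets 1 was lower, of 10 kidney epithelial markers 1 was higher and 2 were lower, and of 9 adipocyte markers 0 passed by edgeR, 0 had an unadjusted p below 0.05 and 0 passed in DESeq2. DESeq2 called 10 of the interferon-stimulated genes and 4 of the kidney epithelial markers for diabetes. It called 2 genes in each of the B and T cell, hepatocyte, and acute phase and NF-kB lists. No gene of these lists was at 0 in all 16 libraries. The part of these cells in the values of Cfb, C4b and C1q was not tested.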

How the data were processed

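Kidney RNA of 16 mice was sequenced with paired reads of 50 bases. Per the study's methods, the authors aligned them with STAR to GRCm39 with GENCODE vM35, and StringTie with its prepDE script gave the deposited estimated counts per gene and per transcript, which were whole numbers already (rounding changed 0 values). Tests used R 4.3.3 and edgeR 4.0.16 (TMM, glmQLFit, glmQLFTest, two-sided) on all 16 libraries with a mean per labelled group, over the 25408 genes with at least 100 counts, with Benjamini-Hochberg adjustment over all of them at 0.05. Correlations used log2 CPM with a prior count of 2. DESeq2 1.42.0 was an alternative. Normalized counts used median-of-ratios size factors, and coordinates are from GENCODE vM39 on GRCm39. Markers, other complement genes and motifs came from written lists. Members and lists were chosen with earlier results of these data known. The named genes were the 8 members and each other complement gene with an adjusted p below 0.05 in any of 6 comparisons. The fit had 12 residual degrees of freedom and a common biological coefficient of variation of 0.201. The labels name biological replicates. Replicate numbers did not pair libraries (24 pairs, r from -0.183 to 0.168). The fits were tested on simulated data. The values of a few single genes are not reported here.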

Additional observations from a re-analysis of the deposited data

Results flagged for a closer look

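C3 in D_C 2 (22896 normalized counts) stood far from the other D_C libraries, which lay between 2409 and 2986, and the gap was 0.972 of the group's range. C3 in D_B12 3 (12531) stood far from the other D_B12 libraries, between 3184 and 4228, with a gap of 0.888 of the range. The limit for 4 libraries is 0.829, which about 1 in 20 groups of normally distributed values pass by chance. Of the 32 groups of libraries examined 2 passed it, both for C3, and the cause was not tested. DESeq2 gave no p-value for C3 in any comparison.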

How the results depend on the processing

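In the comparison of diabetes over both treatments, 2 members were called, and 2 also in DESeq2 and with edgeR's own expression filter. The number was 1 with upper-quartile normalization, 1 without the count filter, 0 with the date as a covariate, 3 without D_C 1 and ND_B12 4, 0 without D_C 2 and D_B12 3 (chosen after seeing the data), and 0 to 2 when 1 library was left out. Within untreated kidneys 0 members became 1 in DESeq2, 2 without D_C 1 and ND_B12 4, and 0 to 2 with 1 library left out, and within B12-treated kidneys 0 became 1 in DESeq2, 1 with the compared groups alone and 1 without D_C 1 and ND_B12 4. No alternative called a member for B12 or the interaction. The cause was not tested.

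Replicate numbers did not pair the libraries, since 5 of 16 were closest to their own number. With the replicate block 1 member was called in place of 2 for diabetes over both treatments, C4b being lost at an edgeR adjusted p of 0.0575, and 478 genes in place of 767.

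Genes called for diabetes over both treatments numbered 767, and 1837 in DESeq2, 427 without the count filter, 0 with the date, 2495 without D_C 1 and ND_B12 4, and 68 without D_C 2 and D_B12 3.

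None of the log2 fold changes that turned sign was called. With the date, C1s1 became 0.072 and C1ra 0.211 for diabetes over both treatments, and C1ra 0.204 for diabetes in untreated kidneys. For diabetes in B12-treated kidneys the date gave 0.536 for Serping1, as large as the called change of Cfb, and 0.218 for C1ra. It gave 0.047 for Serping1 with B12 in non-diabetic kidneys, and 0.006 for C3, 0.014 for C1ra and 0.024 for Serping1 in the interaction. For B12 in diabetic kidneys the date gave 0.292 for C3, 0.101 for C4b, 0.072 for Cfb, 0.141 for C1ra, 0.019 for Cd55 and 0.071 for Serping1. Without D_C 2 and D_B12 3, C3 became -0.047 for diabetes in untreated kidneys and 0.426 for B12 in diabetic kidneys, Serping1 0.033 for diabetes in B12-treated kidneys, and in the interaction C3 0.324 and C4b -0.026. Without D_C 1 and ND_B12 4, B12 in diabetic kidneys gave 0.081 for C4b, 0.104 for Cfb and 0.013 for Cd55, and upper-quartile normalization 0.011 for Cd55, as well as 0.013 for Serping1 with diabetes in B12-treated kidneys. Without D_C 1 and ND_B12 4, C3 also became -0.577 for B12 in non-diabetic kidneys and Cfi 0.045 in the interaction. With 1 library left out, C1s1 ranged from -0.063 to 0.012 for diabetes over both treatments, and in untreated kidneys C3 from -0.047 (without D_C 2) to 1.766 and C1ra from -0.148 to 0.051. For B12 in diabetic kidneys the ranges were -1.110 to 1.125 (without D_C 2) for C3, -0.253 to 0.095 for C4b, -0.260 to 0.119 for Cfb and -0.082 to 0.065 for Cd55. For Serping1 with diabetes in B12-treated kidneys the range was -0.161 to 0.078. For B12 in non-diabetic kidneys it was -0.577 (without ND_B12 4) to 0.349 for C3, -0.040 to 0.117 for C1ra, -0.282 to 0.033 for Cfi and -0.179 to 0.019 for Serping1, and in the interaction -1.220 to 1.023 (without D_C 2) for C3 and -0.317 to 0.046 for Cfi.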

Other observations

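Cfd, which encodes factor D, the protease that activates factor B, spanned 4.29 to 7307 normalized counts over the 16 libraries and was highest in D_B12 2 and lowest in D_C 4. It ran with the fat cell genes Adipoq and Plin1, which are not complement genes. Adipoq was 1108 in D_B12 2, 1009 in ND_C 3 and 749 in D_C 1, the 3 libraries with the most Cfd (7307, 4195 and 2336), and Adipoq was at 0 in D_C 4, D_B12 4, D_B12 3 and ND_C 2, where Cfd was 4.29, 6.07, 23.0 and 33.8. Cfd had a log2 fold change with diabetes of 0.74 ± 1.17 (SE), with an edgeR adjusted p of 0.787.

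Of the near copies of the members, C1rb and C1s2 had log2 fold changes with diabetes of -0.06 ± 0.12 and -0.03 ± 0.12, close to those of C1ra and C1s1, and C4a and Cd55b were below 0 as C4b and Cd55 were. None of these 4 genes passed with edgeR, 2 had an unadjusted p below 0.05, and DESeq2 called 1 (C4a).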
